A study of Arabidopsis thaliana with 8 samples.

Results

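Regions of histone H3 trimethylated at lysine 4 (H3K4me3) were set against regions of histone H3 itself on the nuclear chromosomes 1 to 5 of Arabidopsis thaliana root non-hair cells, the epidermal cells that form no root hairs. A protein-coding gene was counted as carrying a target when at least 150 bp of it, between its annotated start and end, lay under that target's deposited regions. By this rule 4810 of 27444 protein-coding genes carried H3K4me3 and not H3, which is 17.5% of all. H3K4me3 was carried by 39.0% of them in all and H3 by 43.4%. Another 5902 genes (21.5%) carried both, 6001 genes (21.9%) carried H3 and not H3K4me3, and 10731 genes (39.1%) carried neither. The genes with H3K4me3 and not H3 are called H3K4me3-only genes here, and those with H3 and not H3K4me3 are called H3-only genes.

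Both targets had been measured by chromatin immunoprecipitation and sequencing (ChIP-seq) on nuclei isolated by INTACT, a method that pulls down biotin-tagged nuclei of a chosen cell type. The line was in the Col-0 background, expressed the biotin ligase gene ACT2p:BirA constitutively, and expressed the nuclear tag NTF under the GLABRA2 promoter, so the cells captured were those in which that promoter was active. Roots were taken 10 days after germination as 1.25 cm segments of the fully differentiated zone, with 3 g of tissue per sample. The H3K4me3 library and the H3 library each existed once, like those of the other targets of the series (H3K27ac, H3K4me1, H2A.Z and H3K27me3), so no difference below has a replicate check and none was tested. Intervals given with shares are exact (Clopper-Pearson) 95% binomial intervals over genes or regions and cover counting error only.

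H3K4me3 is placed by SET-domain methyltransferases and is known in plants and animals as a mark of the 5′ part of transcribed genes. Histone H3 is a core part of every nucleosome, so a gene without an H3 region still has H3, and an H3 region marks a place where the caller found more H3 signal than its own threshold asked for. In the Arabidopsis root epidermis, H3K4me3 and the Polycomb mark H3K27me3 have been studied on the genes that set hair and non-hair fate.

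The H3K4me3 library held 14717 regions on 3.42% of the nuclear genome and the H3 library 23379 regions on 4.99%. The files give positions only, with no height, score or depth. H3K4me3 regions had a smallest size of 189 bp, which 50.9% of them had, against a smallest size of 211 bp and 63.4% of regions for H3. At least 500 bp were spanned by 7.71% of H3K4me3 regions and 1.63% of H3 regions. An H3 region was touched by 2662 of the H3K4me3 regions (18.1%, 17.5 to 18.7). The depth of both libraries is unknown here, and its part in the difference in region number was not tested.

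The sequences below are examples of such regions. Each was picked among regions of at most 300 bp lying between the start and stop codon, so only coding and intron bases could appear. Of the H3K4me3 bases in annotated parts of H3K4me3-only genes, 13.4% lay in 5′ UTRs. The region of TIC, the gene with the most H3K4me3 among those with no H3 base in or within 500 bp of the gene, was chosen by rule. The regions of CPC, RHD6 and EXPA7, the epidermal marker genes that were H3K4me3-only, and an H3 region of the H3-only gene with the most H3 were chosen after their values were seen. Sequences are from the RefSeq assembly TAIR10.1, whose nuclear chromosomes carry TAIR10 coordinates, read 5′ to 3′ on the strand of the gene. Capitals mark coding exon bases and lower case marks intron bases.
TIC H3K4me3 region, chr3:7914604-7914792, plus strand: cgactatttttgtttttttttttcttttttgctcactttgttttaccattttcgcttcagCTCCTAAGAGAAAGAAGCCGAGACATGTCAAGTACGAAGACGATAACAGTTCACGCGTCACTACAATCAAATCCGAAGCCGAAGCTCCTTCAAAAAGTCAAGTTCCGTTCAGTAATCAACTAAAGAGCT
CPC H3K4me3 region, chr2:19049774-19050015, minus strand: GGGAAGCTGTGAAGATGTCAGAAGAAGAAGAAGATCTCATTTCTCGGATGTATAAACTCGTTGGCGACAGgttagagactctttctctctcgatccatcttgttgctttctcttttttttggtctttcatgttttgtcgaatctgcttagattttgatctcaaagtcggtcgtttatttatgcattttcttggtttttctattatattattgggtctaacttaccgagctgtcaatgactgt
RHD6 H3K4me3 region, chr1:24795647-24795835, plus strand: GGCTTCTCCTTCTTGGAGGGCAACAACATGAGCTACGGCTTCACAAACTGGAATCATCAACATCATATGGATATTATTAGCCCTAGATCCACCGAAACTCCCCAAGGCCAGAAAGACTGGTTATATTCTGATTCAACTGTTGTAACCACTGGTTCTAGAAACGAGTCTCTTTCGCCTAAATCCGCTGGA
EXPA7 H3K4me3 region, chr1:4277038-4277226, plus strand: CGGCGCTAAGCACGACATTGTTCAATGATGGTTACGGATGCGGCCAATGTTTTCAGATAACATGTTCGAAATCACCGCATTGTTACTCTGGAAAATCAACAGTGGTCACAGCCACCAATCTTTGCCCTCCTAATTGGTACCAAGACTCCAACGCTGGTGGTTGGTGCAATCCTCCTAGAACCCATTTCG
AT5G39770 H3 region, chr5:15921113-15921323, minus strand: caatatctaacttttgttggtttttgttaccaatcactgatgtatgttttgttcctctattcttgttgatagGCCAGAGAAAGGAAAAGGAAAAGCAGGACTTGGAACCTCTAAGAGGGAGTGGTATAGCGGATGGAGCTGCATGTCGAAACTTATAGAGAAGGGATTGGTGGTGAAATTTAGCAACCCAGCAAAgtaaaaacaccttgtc

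The TIC region held 60 intron bases followed by 129 coding bases and began 1699 bp after the annotated start. The CPC region began 354 bp after the start and crossed the end of a coding exon, with 70 coding and 172 intron bases. The RHD6 and EXPA7 regions lay wholly in coding exons, with 189 bases each, 433 and 533 bp after the start. The H3 region of AT5G39770 held 123 coding and 88 intron bases and began 6226 bp after the start.

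H3K4me3 lay inside the gene, a short way downstream of the start, and in genes of 1000 bp or more its distance from the start changed less with gene length than that of H3. In H3K4me3-only genes the midpoint of H3K4me3 regions was at a median of 525 bp after the annotated start (quartiles 318 and 844 bp, 5952 regions in 4800 genes), which is 25.0% of the way along the gene. In H3-only genes the midpoint of H3 regions was at a median of 1162.5 bp (quartiles 617 and 1946 bp, 7918 regions in 5985 genes), 51.2% of the way along. Midpoints within the first 500 bp of the gene made up 47.2% of H3K4me3 regions and 19.1% of H3 regions. Of all 14717 H3K4me3 regions, whatever the class of the gene, 43.4% had their midpoint within the first 500 bp of a protein-coding gene, against 10.6% of all H3 regions. In the same H3K4me3-only and H3-only genes, midpoints within the last 500 bp made up 10.1% of H3K4me3 regions and 22.5% of H3 regions.

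Across gene lengths the median distance of H3K4me3 grew less than that of H3. In genes under 1000 bp the 2 were close, at 342.5 bp for H3K4me3 and 351 bp for H3. In genes of 1000 to 1999 bp the median was 497 bp for H3K4me3 and 800 bp for H3. In genes of 2000 to 2999 bp it was 553 bp for H3K4me3 and 1241 bp for H3. In genes of at least 4000 bp it was 604.5 bp for H3K4me3 and 2618.5 bp for H3. As a share of gene length, H3K4me3 lay at 45.0% and H3 at 50.4% in genes under 1000 bp. H3K4me3 moved toward the start, to 12.3% of the way along in genes of at least 4000 bp, and H3 stayed near the middle at 49.2%.

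In genes of at least 2000 bp, H3K4me3 covered 10.5% of bases in the first 50 bp of H3K4me3-only genes and 5.80% in the last 50 bp before the start. Its coverage was highest at 41.2% in the bin centred 425 bp after the start (2760 genes). H3 in H3-only genes had no comparable maximum: its highest bin was centred 1275 bp after the start, at 15.7% (3608 genes). The first 1000 bp of the gene held most of the H3K4me3 bases in 4088 of 4810 H3K4me3-only genes (85.0%, 83.9 to 86.0) and most of the H3 bases in 2658 of 6001 H3-only genes (44.3%, 43.0 to 45.6). In genes of at least 2000 bp these shares were 80.4% for H3K4me3 and 25.2% for H3.

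**Figure D1:**
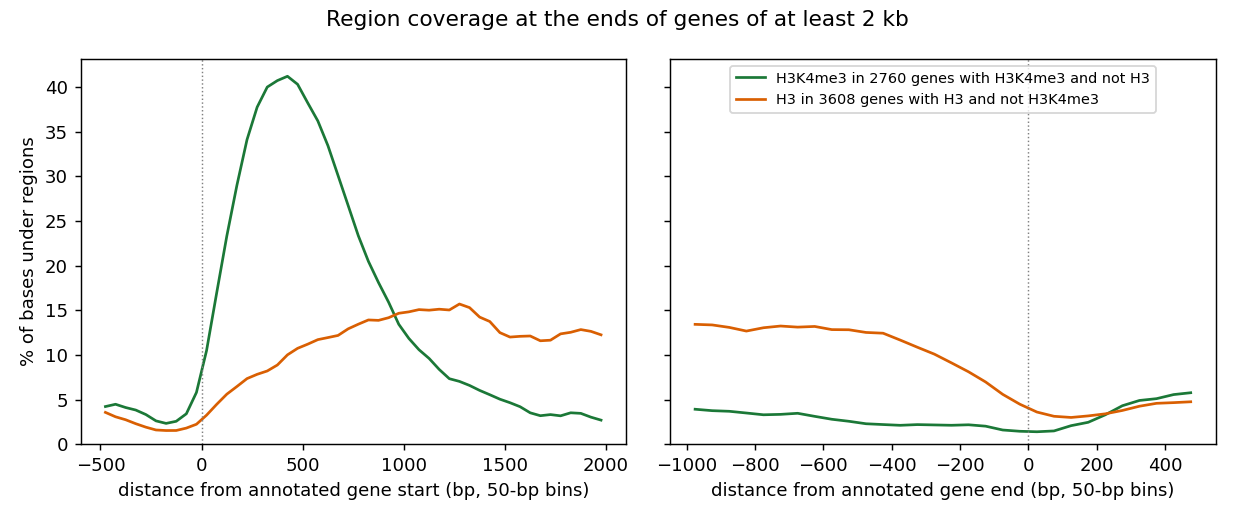
Share of bases under regions in 50-bp bins around the annotated start (left) and end (right) of genes of at least 2000 bp, for H3K4me3 in 2760 H3K4me3-only genes and H3 in 3608 H3-only genes, 1 library each. H3K4me3 peaks at 41.2% in the bin centred 425 bp after the start, while H3 stays at or below 15.7% along the gene.

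The start itself was seldom covered. The start base lay under H3K4me3 in 359 H3K4me3-only genes (7.46%, 6.74 to 8.24) and under H3 in 301 H3-only genes (5.02%, 4.48 to 5.60). Any of the 250 bp before the start lay under H3K4me3 in 484 H3K4me3-only genes (10.1%) and under H3 in 415 H3-only genes (6.92%). A single H3K4me3 region midpoint was present in 3782 of the H3K4me3-only genes (78.6%), 2 in 895 and 3 or more in 123.

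The promoters of the first 4 genes by H3K4me3 bases, given as the 250 bp before each start, lay outside the mark: no base of any of them was under H3K4me3. None held TATAAA, AAACCCTA (a telo box), GGCCCA (the core of site II elements), GAGAGAGA or CACGTG (a G box) on either strand, so no base is in capitals.
TIC promoter, chr3:7912655-7912904, plus strand: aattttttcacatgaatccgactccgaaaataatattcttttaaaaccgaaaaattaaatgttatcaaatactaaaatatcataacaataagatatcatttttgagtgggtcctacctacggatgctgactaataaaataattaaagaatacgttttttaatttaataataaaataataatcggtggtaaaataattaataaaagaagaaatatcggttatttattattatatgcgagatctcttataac
EBF2 promoter, chr5:8797350-8797599, minus strand: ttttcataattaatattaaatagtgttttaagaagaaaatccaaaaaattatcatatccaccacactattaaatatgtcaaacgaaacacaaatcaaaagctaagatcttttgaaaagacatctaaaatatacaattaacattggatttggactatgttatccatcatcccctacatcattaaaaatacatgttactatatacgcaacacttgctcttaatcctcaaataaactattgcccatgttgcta
AT5G56240 promoter, chr5:22764588-22764837, minus strand: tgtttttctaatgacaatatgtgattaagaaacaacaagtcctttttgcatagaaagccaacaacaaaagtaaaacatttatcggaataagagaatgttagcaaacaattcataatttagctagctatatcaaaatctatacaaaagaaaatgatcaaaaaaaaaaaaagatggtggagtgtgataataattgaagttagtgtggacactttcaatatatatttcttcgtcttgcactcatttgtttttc
AT4G18670 promoter, chr4:10278795-10279044, minus strand: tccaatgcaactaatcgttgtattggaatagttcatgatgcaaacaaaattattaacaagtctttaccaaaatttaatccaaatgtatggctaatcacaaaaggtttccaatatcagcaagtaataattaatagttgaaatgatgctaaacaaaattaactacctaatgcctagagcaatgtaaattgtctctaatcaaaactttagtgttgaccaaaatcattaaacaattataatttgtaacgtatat

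These promoters were AT-rich, with a GC content of 22.8% for TIC, 27.2% for EBF2, 27.6% for AT5G56240 and 27.2% for AT4G18670. The classes differed little: in windows that add the first 50 bp of the gene, the median GC content was 31.7% in H3K4me3-only genes. It was 32.3% in H3-only genes and 32.0% in all protein-coding genes. Over 300-bp windows, the 250 bp before the start and the first 50 bp of the gene, GGCCCA was present in 19.2% of H3K4me3-only genes (18.1 to 20.3), 14.5% of H3-only genes (13.6 to 15.4) and 15.5% of all protein-coding genes. In the 250 bp before the start alone it was in 16.8% of H3K4me3-only genes, 12.7% of H3-only genes and 13.7% of all. Genes with both targets had GGCCCA in 21.2% of the 300-bp windows, so its share was not highest in H3K4me3-only genes. The other motifs were within 2 percentage points of each other in both classes: TATAAA was in 51.3% of H3K4me3-only and 50.6% of H3-only windows, against 52.1% of all, and AAACCCTA was in 5.57% of H3K4me3-only and 6.88% of H3-only windows, against 6.22% of all. GAGAGAGA was in 8.07% of H3K4me3-only and 9.18% of H3-only windows, against 8.38% of all, and CACGTG was in 8.15% of H3K4me3-only and 7.47% of H3-only windows, against 7.68% of all. No searched motif contains another, and a match describes the sequence only.

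Both exons and introns near the 5′ end carried the mark. In the 2550 H3K4me3-only genes of at least 4 exons, H3K4me3 covered 29.2% of exon 1, 35.8% of intron 1, 22.3% of exon 2 and 16.8% of intron 2. Coverage was 2.42% in later exons before the last and 2.31% in the last exon. In the 3542 H3-only genes of at least 4 exons, H3 covered 7.89% of exon 1, 9.60% of intron 1, 14.3% of exon 2 and 15.6% of exon 3, and 11.4% of the last exon. By annotated part, H3K4me3 in H3K4me3-only genes covered 20.1% of 5′ UTR bases, 15.9% of coding bases, 14.2% of intron bases and 4.25% of 3′ UTR bases. H3 in H3-only genes covered 5.98% of 5′ UTR bases, 15.3% of coding bases, 10.9% of intron bases and 9.41% of 3′ UTR bases.

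**Figure D2:**
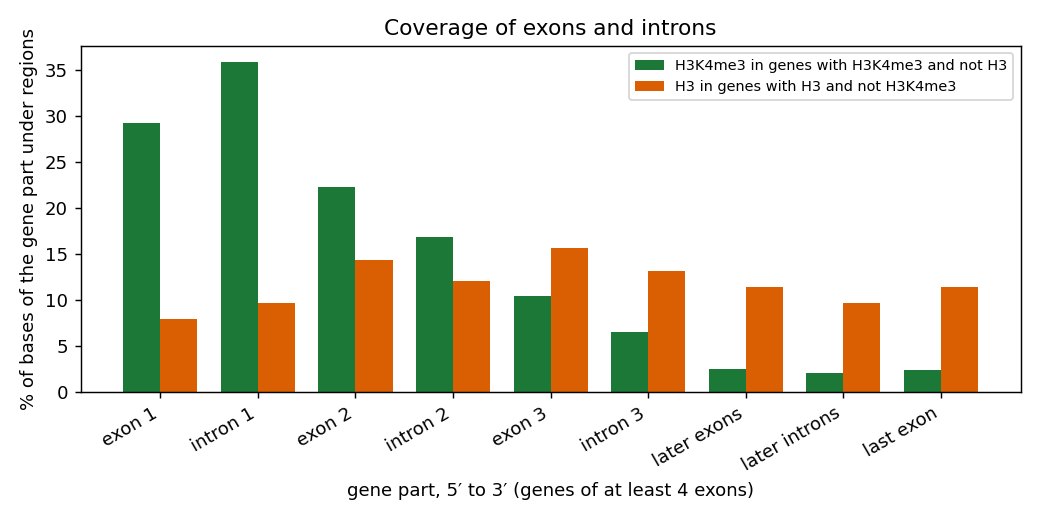
Share of the bases of each exon and intron under regions in genes of at least 4 exons, for H3K4me3 in 2550 H3K4me3-only genes (left bar of each pair) and H3 in 3542 H3-only genes (right bar), 1 library each. H3K4me3 is highest in intron 1 at 35.8% and falls to 2.31% in the last exon, while H3 lies between 7.89% in exon 1 and 15.6% in exon 3.

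The distance of H3K4me3 from the start varied with the first exon only in part. In H3K4me3-only genes of at least 2 kb with more than 1 exon and a first exon under 150 bp, the median midpoint was at 466 bp and 95.2% of midpoints lay beyond the first exon. With a first exon of at least 600 bp, the median midpoint was at 686 bp and 32.5% lay beyond it. Over all H3K4me3-only genes, 81.8% of H3K4me3 midpoints came after the start codon.

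The same order held within genes that carried both targets. The mean midpoint of H3K4me3 was nearer the start than that of H3 in 4903 of 5893 such genes (83.2%, 82.2 to 84.1), with a median offset of 715 bp. No base was shared by the 2 targets in 3477 of 5902 genes (58.9%). Both targets were sparse there, with medians of 10.7% of the gene under H3K4me3 and 11.0% under H3. Of the H3K4me3 bases of these genes, 20.0% lay under H3. The 5 genes with the most shared bases were AT3G30390, an amino acid transporter gene (672 bp), RPS2, a disease resistance gene (605 bp), Hrd1A, a ubiquitin ligase gene (557 bp), AT3G12685 (548 bp) and GAMMA CAL2, a mitochondrial carbonic anhydrase-like gene (543 bp).

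H3K4me3-only genes were of middle length. Their median length was 2165 bp (quartiles 1631 and 2892), against 2316 bp (1588 and 3267) in H3-only genes, 3013.5 bp in genes with both, 1418 bp in genes with neither and 2078 bp over all. The difference of 151 bp between H3K4me3-only and H3-only genes changed sign, to 67 bp longer in H3K4me3-only genes, when an H3 base within 500 bp of the gene was also counted as H3. The share of H3K4me3-only genes was 6.81% under 1000 bp, 20.3% at 1000 to 1999 bp, 22.6% at 2000 to 2999 bp, 19.2% at 3000 to 3999 bp and 11.0% at 4000 bp and over. The share with both grew over the same classes, to 50.3% at 4000 bp and over, and that of H3-only genes was 26.4% there.

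**Figure D3:**
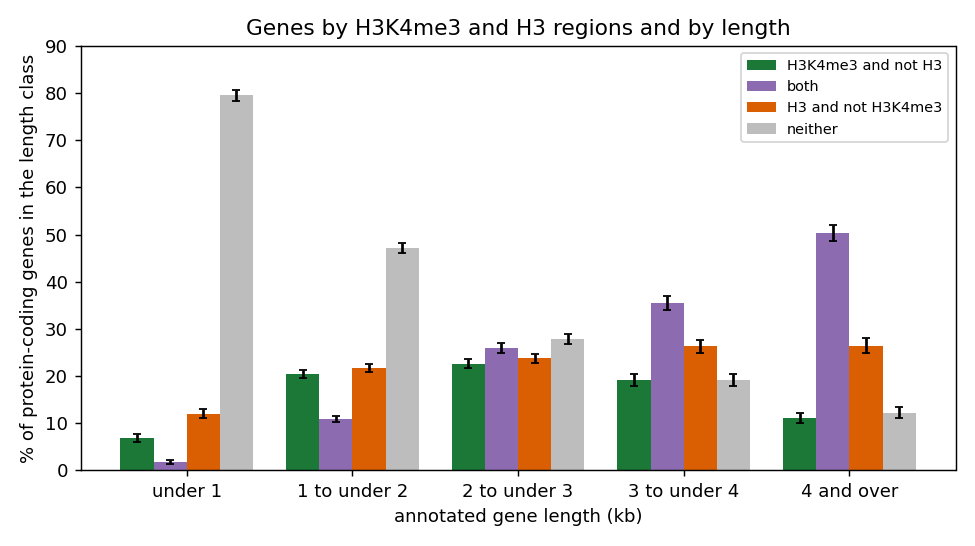
Share of protein-coding genes in each length class that carried H3K4me3 and not H3, both, H3 and not H3K4me3, or neither, by at least 150 bp of the gene; error bars are exact 95% binomial intervals. H3K4me3-only genes are most frequent at 2000 to 2999 bp (22.6%), and genes with both reach 50.3% at 4000 bp and over.

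H3K4me3-only genes had a median of 4 exons, as did H3-only genes, and 7 was the median of genes with both. A single exon was annotated in 932 H3K4me3-only genes (19.4%) and 902 H3-only genes (15.0%), against 20.4% of all protein-coding genes. The annotation gave no 5′ UTR for 230 H3K4me3-only genes (4.78%) and for 1161 H3-only genes (19.3%). Genes with both were near the H3K4me3-only genes at 4.32%, and all protein-coding genes were at 16.3%. Products named as uncharacterized, hypothetical or of unknown function made up 7.59% of H3K4me3-only genes and 8.47% of H3-only genes. The share was 3.81% in genes with both and 18.1% in genes with neither.

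The amount of the mark per gene was small. H3K4me3-only genes had a median of 267 bp under H3K4me3 (quartiles 189 and 427 bp, highest 1434 bp), and H3-only genes a median of 264 bp under H3 (highest 2087 bp). In 1744 of the 4810 H3K4me3-only genes exactly 189 bp were covered, the size of 1 smallest region. At the threshold, 5 protein-coding genes had 149 bp and 3 had 150 bp of H3K4me3. No H3 base at all lay in 4718 H3K4me3-only genes, and 92 had 1 to 149 bp of H3. No H3 base lay in the gene or within 500 bp on either side in 4133 of them (85.9%, 84.9 to 86.9).

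Among those 4133, TIC (AT3G22380, TIME FOR COFFEE, a regulator of the circadian clock) had the most H3K4me3, 1434 bp in 3 regions, of its 6803 bp. EBF2 (AT5G25350), whose F-box protein targets EIN3, a transcription factor of ethylene signalling, for degradation, had 1405 bp, which is 45.4% of the gene. HAM2 (AT3G60630), a GRAS transcription factor of shoot and root meristems, had 1195 bp in a single-exon gene. PUP14 (AT1G19770), a purine permease that takes up cytokinin, had 1173 bp, which is 77.5% of the gene. The others of the 8 were AT5G56240 (1284 bp), the leucine-rich repeat gene AT4G18670 (1213 bp), AT2G24550 (1191 bp) and AT4G20300 (1179 bp).

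The longest region of these genes began 38 to 1646 bp after the start. That of TIC ran 161 to 1216 bp after the start, that of EBF2 402 to 1366 bp, and that of PUP14 38 to 1210 bp. In AT4G18670 it lay farther in, 1646 to 2141 bp after the start, and in AT2G24550 it ran 429 to 1619 bp after the start, nearly to the end of a gene of 1632 bp. The 6 genes with the largest share of their length under H3K4me3 were all uncharacterized and short, 153 to 832 bp: AT1G07901 and AT5G60240 were covered whole, AT5G14275 to 99.5%, AT5G04790 to 96.4%, AT5G41025 to 95.6% and AT5G18748 to 86.2%. AT5G41025 lies within AT5G41020, a myb family gene on the other strand, and the same region of 929 bp counted for both. Of all H3K4me3-only genes, 285 (5.93%) shared a region with another protein-coding gene.

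Long genes led the H3-only class. AT5G39770, annotated as an endonuclease-like protein, had 2087 bp under H3. The midasin-like gene AT1G67120 had 2054 bp, in a gene of 26211 bp. PKL (PICKLE), a CHD3 chromatin remodeller, had 1809 bp, SCD1, which acts in cytokinesis and membrane traffic, had 1590 bp, and PIE1, the ATPase of the complex that deposits H2A.Z, had 1578 bp.

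H3K27ac, an acetylation of H3 found with active genes, accompanied the mark. It was carried by 4272 of 4810 H3K4me3-only genes (88.8%, 87.9 to 89.7) and 3998 of 6001 H3-only genes (66.6%, 65.4 to 67.8), against 66.4% of all protein-coding genes. Genes with both targets carried H3K27ac in 92.9%, so its share was not highest in H3K4me3-only genes. H3K27ac was more frequent in H3K4me3-only than in H3-only genes in every length class. The shares were 79.2% in H3K4me3-only and 35.1% in H3-only genes under 1000 bp. In genes of at least 4000 bp they were 91.3% in H3K4me3-only and 83.4% in H3-only genes. H3K27ac regions lay over 58.0% of the H3K4me3 bases of H3K4me3-only genes and over 27.5% of the H3 bases of H3-only genes. In genes with both they lay over 59.9% of the H3K4me3 bases. In H3K4me3-only genes of at least 2000 bp its coverage was highest in the bin centred 375 bp after the start, at 56.3%.

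Over all lengths together, the other targets were less frequent in H3K4me3-only genes than in H3-only genes. H3K4me1, a mark of gene bodies in plants, was on 51.9% of H3K4me3-only and 65.9% of H3-only genes (52.5% of all). The histone variant H2A.Z was on 51.3% of H3K4me3-only and 66.9% of H3-only genes (53.9% of all). H3K27me3 was on 40.3% of H3K4me3-only and 47.6% of H3-only genes (42.8% of all). As 1 input was labelled for the H3K27me3 library alone, any difference in preparation cannot be told apart from the mark where H3K27me3 is set against other targets. At 4000 bp and over (357 H3K4me3-only and 859 H3-only genes) the classes were close for H3K4me1 and H3K27me3. H3K4me1 was on 88.5% of H3K4me3-only and 88.0% of H3-only genes there, and H3K27me3 on 47.6% of H3K4me3-only and 45.3% of H3-only genes. Genes with both carried H3K4me1 in 85.4%, more than either class. H3K4me1 covered 7.44% of the H3K4me3 bases of H3K4me3-only genes, and its highest coverage in those genes of at least 2000 bp was 1375 bp after the start, at 26.3%.

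H3K27me3 without H3K27ac was found in 277 H3K4me3-only genes (5.76%) and 1101 H3-only genes (18.3%), against 15.4% of all protein-coding genes, and in 3.78% of genes with both and 24.4% of genes with neither. H3K27ac without H3K27me3 was found in 2611 H3K4me3-only genes (54.3%) and 2243 H3-only genes (37.4%), against 39.0% of all. None of the 4 other targets was carried by 80 H3K4me3-only genes (1.66%) and 301 H3-only genes (5.02%), against 10.7% of all and 0.203% of genes with both.

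**Figure D4:**
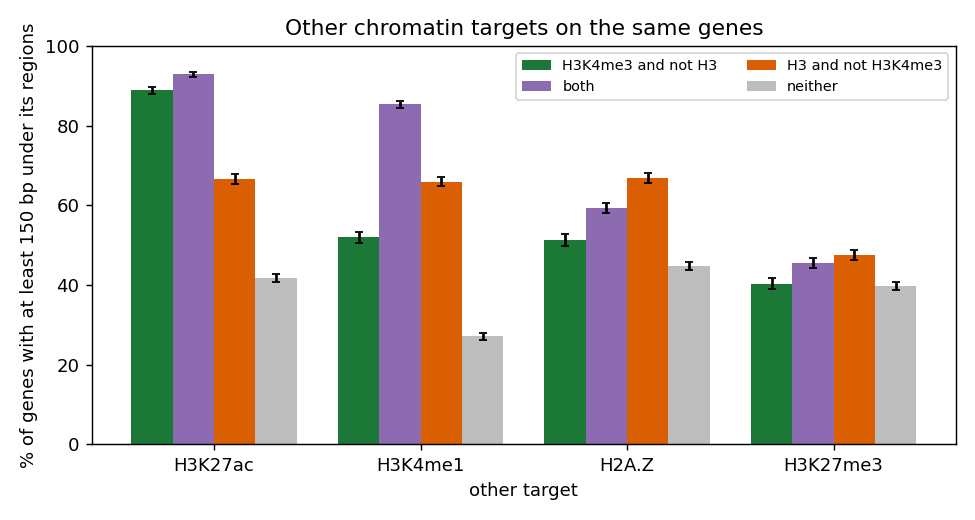
Share of genes in each class that carried H3K27ac, H3K4me1, H2A.Z or H3K27me3, by at least 150 bp of the gene, 1 library each; error bars are exact 95% binomial intervals. H3K27ac is on 88.8% of H3K4me3-only and 66.6% of H3-only genes, while over all lengths the other targets are less frequent in H3K4me3-only genes than in H3-only genes.

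H3K4me3-only genes were spread over the chromosomes at 16.1% to 18.3% of protein-coding genes, and were fewer near centromeres. Within 3 Mb of rounded centromere positions they made up 10.4% of protein-coding genes, against 18.5% on the arms. Genes with both were also fewer near centromeres, at 15.2% against 22.3% on the arms. H3-only genes made up 22.4% near centromeres and 21.8% on the arms.

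By function, 38 lists were formed from words in the RefSeq product names, and 7561 genes fell in at least 1 of them. Such lists follow the annotation's wording and are approximate: the histone list also holds a gene named as an H3K4 methyltransferase (AT2G35170), the kinase list a lipid-binding protein (AT1G07310), and the aminoacyl-tRNA synthetase list a protein named with a domain of unknown function (AT5G12950). The homeobox list also holds genes whose product is named only as homeodomain-like, such as PC-MYB1 (AT4G32730), so it is not a single family. All lists were read against 17.5% of all protein-coding genes. The interval of 7 lists lay above that share and that of 6 lists below it, and 24 of the 38 had a share above it. H3K4me3-only members outnumbered H3-only members in 17 lists.

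Lists of protein synthesis and turnover were not alike. Ubiquitin-conjugating enzymes, which pass ubiquitin to its targets, were H3K4me3-only in 18 of 45 members (40.0%, 25.7 to 55.7) and H3-only in 6 (13.3%), with UBC9 at 936 bp, UBC5 at 621 bp and UBC11 at 535 bp of H3K4me3. Ribosomal proteins were H3K4me3-only in 112 of 384 (29.2%, 24.7 to 34.0) and H3-only in 53 (13.8%), led by AT1G16740 (L20, 726 bp), AT3G09200 (L10, 706 bp) and RPL16B (703 bp). Aminoacyl-tRNA synthetases were H3K4me3-only in 21 of 64 (32.8%) and H3-only in 13 (20.3%), led by the glycyl-tRNA synthetase gene AT1G29880 at 570 bp. Other lists of this kind were nearer the share of all genes: translation factors were H3K4me3-only in 18.3% and H3-only in 30.3%, proteasome subunits were H3K4me3-only in 21.7% (10.9 to 36.4) and H3-only in 19.6%, and RING and U-box proteins were H3K4me3-only in 20.7% (17.3 to 24.5) and H3-only in 19.7%.

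The remaining lists whose interval lay above the share of all genes were of several kinds. Vesicle traffic proteins were H3K4me3-only in 68 of 279 (24.4%, 19.5 to 29.8) and H3-only in 44 (15.8%), led by SGR4, a SNARE of the shoot gravity response, at 712 bp. Protein phosphatases 2C were H3K4me3-only in 21 of 65 (32.3%, 21.2 to 45.1) and H3-only in 13 (20.0%), with PP2CA, a negative regulator of abscisic acid signalling, at 838 bp and POL, which acts in meristems, at 824 bp. Histones were H3K4me3-only in 19 of 52 (36.5%) and H3-only in 9 (17.3%), with AT2G28720 at 725 bp and AT5G65360 at 526 bp. UDP-glycosyltransferases were H3K4me3-only in 33 of 131 (25.2%) but H3-only in 39 (29.8%). Among other signalling lists, kinases not named as receptors were H3K4me3-only in 20.1% and H3-only in 21.9%, and receptor-like kinases were H3K4me3-only in 16.2% and H3-only in 32.8%.

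Of the 8 transcription factor families, MADS factors alone had an interval that left out the share of all genes. MADS factors, which include the floral homeotic genes, were H3K4me3-only in 7 of 120 (5.83%, 2.38 to 11.6) and H3-only in 36 (30.0%), and AGL18 led with 474 bp. WRKY factors were H3K4me3-only in 14 of 72 (19.4%, 11.1 to 30.5) and H3-only in 6 (8.33%), with WRKY39 at 1029 bp, WRKY11 at 787 bp and WRKY57 at 753 bp. NAC factors were H3K4me3-only in 29 of 118 (24.6%, 17.1 to 33.4) and H3-only in 18 (15.3%), and ATAF2 had 740 bp. The other families lay between these in their H3K4me3-only share, apart from bZIP factors. bZIP factors were H3K4me3-only in 17 of 63 (16.6 to 39.7%) and H3-only in 9 (14.3%). The homeobox list, homeodomain-like genes included, was 22.1% H3K4me3-only and 22.1% H3-only. bHLH factors were H3K4me3-only in 17.8% and H3-only in 23.0%, AP2/ERF factors were H3K4me3-only in 15.3% and H3-only in 19.4%, and MYB factors were H3K4me3-only in 15.0% and H3-only in 28.3%.

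Of the lists with an interval below the share of all genes, ABC transporters and NLR disease resistance proteins still carried H3K4me3 about as often as all genes (39.0%), with many members carrying both targets. ABC transporters were H3K4me3-only in 5 of 73 (6.85%) and H3-only in 33 (45.2%), with both in 24 (32.9%), so that 39.7% carried H3K4me3. NLR disease resistance proteins were H3K4me3-only in 17 of 159 (10.7%) and H3-only in 57 (35.8%), with both in 43, so that 37.7% carried H3K4me3, and ADR1, a helper NLR, had 722 bp. F-box proteins, pectin and cell wall hydrolases and defensin-like proteins carried it less often. F-box proteins were H3K4me3-only in 61 of 685 (8.91%) and H3-only in 191 (27.9%), and 16.8% carried H3K4me3 in all. Pectin and cell wall hydrolases were H3K4me3-only in 62 of 496 (12.5%) and H3-only in 141 (28.4%). This list is wider than its name, as it also holds genes whose product is named only as a glycosyl hydrolase. An example is PEN2, a myrosinase of pathogen resistance, at 721 bp. Defensin-like and small secreted proteins carried little of either target: 8 of 381 (2.10%) were H3K4me3-only, 29 (7.61%) H3-only and 339 (89.0%) neither, in genes with a median length of 543 bp.

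These lists differ in gene length, and within genes of 1000 to 2999 bp (21.4% H3K4me3-only over all) some lists kept their place and others moved. Ribosomal proteins were H3K4me3-only in 30.0% of members and ubiquitin-conjugating enzymes in 43.6%, while F-box proteins were at 9.30% and pectin and cell wall hydrolases at 14.2%. Proteasome subunits rose to 30.3% (10 of 33), level with ribosomal proteins, and histones fell to 29.6% (8 of 27). H3K4me3-only members outnumbered H3-only members in 20 of the 38 lists at these lengths.

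**Figure D5:**
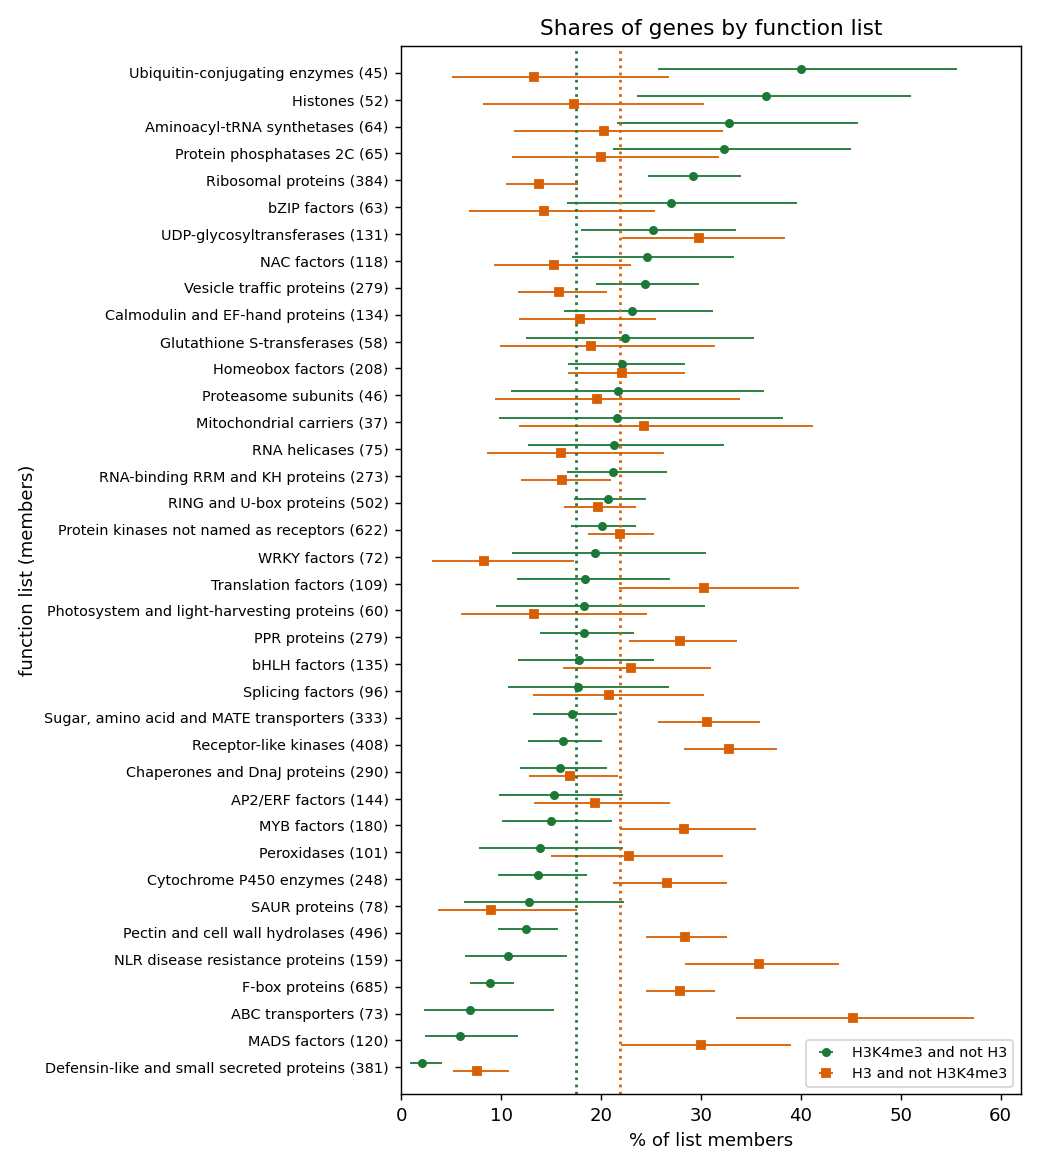
Share of the members of each of 38 function lists that were H3K4me3-only (circles) and H3-only (squares), with exact 95% binomial intervals; dotted lines mark the shares over all protein-coding genes, 17.5% and 21.9%. Ubiquitin-conjugating enzymes are highest for H3K4me3-only at 40.0% and defensin-like proteins lowest at 2.10%.

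Genes of the labelled cell type were checked last, over 28 marker genes. Of 8 non-hair fate genes, CPC, a mobile inhibitor of non-hair fate, was H3K4me3-only (242 bp), and WER (189 bp), GL2 (378 bp) and TTG1 (581 bp) carried both targets, and GL2 also had 1311 bp of H3K27me3. EGL3 was H3-only, and GL3, MYB23 and TTG2 carried neither. Of 7 root hair genes, RHD6 and EXPA7 were H3K4me3-only with 189 bp each, and both also carried H3K27me3, 1348 bp in RHD6 and 482 bp in EXPA7. RBOHC carried both, with 189 bp of H3K4me3, RSL4 was H3-only, and COBL9, EXPA18 and PRP3 carried neither.

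Markers of other cell types differed from one another. In the endodermis SCR, a GRAS factor of the ground tissue, was H3K4me3-only with 578 bp. That was more than GL2, WER or CPC had and slightly less than TTG1 had (581 bp). MYB36 and ESB1 were H3-only and CASP1 carried neither. None of 5 vascular genes (VND7, MYB46, APL, SUC2 and SHR) carried H3K4me3, and all 5 carried H3K27me3. H3K27me3 was not particular to them: 6 of 7 root hair genes and 2 of 2 root cap genes carried it. It was also on 4 of 8 non-hair fate genes, 2 of 4 endodermis genes and 1 of 2 leaf genes. The root cap genes SMB and BRN1 carried neither target, with 91 bp of H3K4me3 in BRN1, and of the leaf genes RBCS1A was H3-only and LHCB1.3 carried neither. By these counts 4 of 8 non-hair fate genes, 3 of 7 root hair genes, 1 of 4 endodermis genes and none of the vascular, root cap and leaf genes carried H3K4me3. Over all protein-coding genes 39.0% carried H3K4me3 and 42.8% carried H3K27me3, and these marker lists are small. In WER, RHD6, EXPA7 and RBOHC the H3K4me3 was 189 bp, the size of 1 smallest region.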

How the data were processed

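The unit of the deposited files is other than a read count: each lists the start and end positions, in base pairs, of regions called by the authors in 1 library, with no score. The submitters' processing notes name HOMER, deepTools 2.0, SAMtools 0.1.19 and Bowtie2, and the build TAIR10; per the file names the regions were sorted and merged. How the caller was set and which control it had is not given in the sources used here. Values of the 2 input samples were not analysed here. Mitochondrial regions, 1 of H3K4me3 and 4 of H3, were left out. Regions were laid over the RefSeq TAIR10.1 annotation (27444 nuclear protein-coding genes) with Python 3.11.15, numpy 2.4.6, pandas 2.3.3 and scipy 1.17.1, after the overlap code had been checked on simulated regions. A region was placed by its midpoint.

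The members, the function lists and the marker genes were chosen with earlier results of these data known, and the wording of the list patterns was refined after the annotation had been read. Named genes are the 8 with the most H3K4me3 bases and the 6 with the largest covered share among H3K4me3-only genes with no H3 base within 500 bp, the 5 H3-only genes with the most H3, the 5 genes with the most shared bases, up to 3 members per list, and the markers. Alternatives changed the bases required (1, 200 or 300 bp), the regions used, the reach of H3, the placing by midpoint, the centromere flanks and overlapping genes. Promoter motifs were also counted without the first 50 bp of the gene, chosen after seeing the data.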

Additional observations from a re-analysis of the deposited data

How the results depend on the processing

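Each of 10 results was recomputed under 9 alternatives. Of the 90 values, 61 stayed close to the reported one, 28 moved and 1 reversed. Of the 61, 5 are the share of all H3K4me3 regions in the first 500 bp under alternatives that cannot change it. Counts were called close up to a ratio of 1.5, so with 200 bp required 7649 H3-only genes and 4040 genes with both were close. Among the length differences called close, 2 had intervals holding both signs. These were -86 bp (-180 to 3) without regions of the smallest size and -196 bp (-552 to 255) with regions of at least 500 bp. With 200 bp required, which 1 smallest region meets for H3 (211 bp) and not for H3K4me3 (189 bp), H3K4me3-only genes numbered 3025 and H3-only genes 7649, the difference in midpoint was -691 bp, the length difference -240 bp, the first-1000-bp share 88.0% and the H3K27ac difference 27.2 points. With 300 bp, H3-only genes numbered 3525 and genes with both 1678, the midpoint difference was -858 bp, the length difference -409 bp and the first-1000-bp share 87.5%. Without regions of the smallest size, H3-only genes numbered 3712 and genes with both 1800, the midpoint difference was -743 bp, the share of H3K4me3 regions in the first 500 bp 51.0%, the first-1000-bp share 91.2% and the H3K27ac difference 25.1 points. With regions of at least 500 bp, H3K4me3-only genes numbered 1122, H3-only genes 252 and genes with both 19, the midpoint difference was -772.5 bp, the first-500-bp share 49.8%, the first-1000-bp share 92.4% and the H3K27me3 difference -3.79 points. With H3 counted within 500 bp of the gene, the length difference reversed to 67 bp (interval -9 to 134) and the H3K27ac difference was 27.6 points. Without centromere flanks the H3K27ac difference was 19.8 points. With genes that overlap no other gene, the midpoint difference was -579 bp, the first-500-bp share 28.8%, where fewer gene starts were counted by construction, and the H3K27me3 difference -10.9 points. Reported values were -637.5 bp, -151 bp, 43.4%, 85.0%, 22.2 and -7.30 points, each H3K4me3-only minus H3-only where a difference. Other causes were not tested. Of 342 list values, 257 stayed close and 85 moved; the number of lists above the share of all genes was 24 as reported and 17 to 24 over the alternatives. No paired analysis was possible because each target has 1 library. Depth is unknown here, and 1744 H3K4me3-only genes rest on 1 smallest region.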

Other observations

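Pseudogenes seldom carried H3K4me3, and most of those with H3 carried H3 alone. Of 3852 annotated pseudogenes with no base in a protein-coding gene, 39 (1.01%, 0.721 to 1.38) carried H3K4me3 and not H3. H3 and not H3K4me3 was carried by 1324 of them (34.4%), and both by 65 (1.69%). Among protein-coding genes 21.9% carried H3 and not H3K4me3, and 43.4% carried H3 in all. Of 846 transcribed pseudogenes, 30 (3.55%) carried H3K4me3 and not H3 and 175 (20.7%) carried H3 and not H3K4me3. Genes annotated as ncRNA were nearer the protein-coding share, with 32 of 191 (16.8%, 11.8 to 22.8) H3K4me3-only and 22 (11.5%) H3-only. Those annotated as lncRNA were at 36 of 2059 (1.75%) H3K4me3-only and 141 (6.85%) H3-only, with a median length of 314 bp.

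Outside protein-coding genes the most H3K4me3 without H3 lay on AT1G79245, a transcribed pseudogene with 1564 bp, followed by the ncRNA genes AT4G36648 (887 bp) and GUT15 (619 bp) and the retroposon-derived SADHU1-1 (613 bp). AT4G36648 carried none of the other 4 targets.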
